A study of Mus musculus with 18 samples.

Results

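The genes described here were the insulin-repressed gene Igfbp1 and 9 genes known as targets or upstream parts of insulin and FOXO signalling in liver, namely Igfbp2, Irs1, Irs2, Insr, Foxo3, Ccng2, Cdkn1a, Trib1 and Sesn1. They were 10 of 15572 genes in the RNA-seq count table, taken by gene symbol, and all 10 passed the filter on low counts that left 14151 genes for testing. Their chromatin was read from the ATAC-seq and H3K9me2 summits around their RefSeq transcript starts on mm10. The genes were chosen by symbol with their RNA-seq log2 fold changes known, so their fold changes are given as a description with standard errors and no p-value.

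After a meal, insulin binds its receptor (Insr), which phosphorylates the adaptor proteins Irs1 and Irs2 and starts the PI3K and Akt cascade. Akt phosphorylates the FOXO transcription factors, which then leave the nucleus, and genes that FOXO factors switch on in the fasted liver fall silent. Igfbp1, a secreted protein that binds insulin-like growth factors, is the classic liver gene of this kind, and Irs2, Insr and several growth-arrest genes are FOXO targets as well. JMJD1C is a JmjC-domain protein reported to remove methyl groups from lysine 9 of histone H3, and the study asked what its loss does to chromatin and transcription in the fed liver.

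Livers came from C57BL/6J mice kept on chow for 6 to 8 weeks by the labels, while the methods give an age of 12 weeks. The labels give every sample, those titled as fasted included, an overnight fast and then 6 h on a high-carbohydrate diet, where the methods give 8 to 16 h of feeding. The fasted groups below therefore rest on the sample titles, against that label, and so does each comparison of fasted with refed livers. JMJD1C-LKO mice carried a floxed Jmjd1c gene and Cre under the albumin promoter, which acts mainly in hepatocytes. Other cells of the liver can keep Jmjd1c. The methods name WT littermates as controls. ATAC-seq covered fasted WT livers and refed livers of both genotypes, H3K9me2 ChIP-seq covered WT livers in both feeding states, and RNA-seq covered refed livers of both genotypes, with 2 samples in each group. Each RNA-seq library was made from pooled RNA and each summit list from a single liver. No fasted RNA-seq was analysed here, so repression of these genes by feeding itself could not be measured.

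The RNA-seq libraries held 51265128 to 54400509 estimated counts each. Jmjd1c, the targeted gene, stood at 22.0 and 22.8 counts per 1000000 (CPM, scaled by TMM) in the WT libraries and at 20.04 and 20.48 CPM in the libraries labelled JMJD1C-LKO, a log2 fold change of -0.14 ± 0.08 (SE) that did not pass the test (adjusted p = 0.233 by edgeR's quasi-likelihood test). The conditional allele loses an internal stretch of the gene, while the counts cover whole transcripts and so include what lies outside it. This check is therefore weak, and the libraries are called by their label throughout. The 4 RNA-seq libraries carried the Y-linked gene Ddx3y at 48.0 to 55.9 CPM. Over all genes, 28.0% passed an adjusted p of 0.05, of which 2066 were higher and 1892 lower in the libraries labelled JMJD1C-LKO. H3K9me2 refed replicate 1 stood apart, with 1297 summits of which 73.0% lay in repeats, against 7690 to 13456 summits in the other 3 livers. Among the ATAC livers, fasted replicate 2 had 78.0% of its 7632 summits in repeats, against 18.6% to 48.4% in the others.

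The promoters of the genes were read first, because insulin response sequences and FOXO motifs were defined in promoters of this kind. RefSeq promoter windows of GRCm38.p6 were found for 8 of the 10 genes, all except Insr and Trib1. In the 250 bases before the start shown next, 5′ to 3′ on the strand of the gene, capitals mark the insulin response motif CAAAACA or its reverse complement TGTTTTG, the E-box CACGTG and, in Cdkn1a, a match to the p53 response element. Igfbp1 is shown as the classic insulin-repressed promoter (chr11:7197537-7197786, plus strand), and Irs1 (chr1:82291440-82291689, minus strand) and Irs2 (chr8:11008930-11009179, minus strand) as adaptors of the same cascade that hold both an insulin response motif and an E-box. Ccng2 (chr5:93267323-93267572, plus strand) is shown because it was the member with ATAC summits in most livers, and Cdkn1a (chr17:29090729-29090978, plus strand) for its p53 element.
Igfbp1: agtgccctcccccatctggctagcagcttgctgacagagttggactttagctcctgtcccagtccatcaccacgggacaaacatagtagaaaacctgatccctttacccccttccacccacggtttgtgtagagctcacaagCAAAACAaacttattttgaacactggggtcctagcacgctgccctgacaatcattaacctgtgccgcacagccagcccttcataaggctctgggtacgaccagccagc
Irs1: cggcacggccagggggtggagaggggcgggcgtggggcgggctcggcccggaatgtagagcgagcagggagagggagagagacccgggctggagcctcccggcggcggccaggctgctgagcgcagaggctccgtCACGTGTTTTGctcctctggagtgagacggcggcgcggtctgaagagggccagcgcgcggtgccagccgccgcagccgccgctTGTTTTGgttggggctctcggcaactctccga
Irs2: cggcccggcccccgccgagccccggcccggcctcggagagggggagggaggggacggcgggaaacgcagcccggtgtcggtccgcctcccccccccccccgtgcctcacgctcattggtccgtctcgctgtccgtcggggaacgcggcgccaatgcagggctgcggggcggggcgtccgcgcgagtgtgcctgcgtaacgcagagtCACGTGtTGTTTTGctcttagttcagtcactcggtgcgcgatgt
Ccng2: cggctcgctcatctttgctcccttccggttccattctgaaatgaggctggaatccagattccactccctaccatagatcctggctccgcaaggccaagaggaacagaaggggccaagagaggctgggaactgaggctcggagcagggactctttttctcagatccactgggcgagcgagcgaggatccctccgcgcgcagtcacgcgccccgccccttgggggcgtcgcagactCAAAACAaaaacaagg
Cdkn1a: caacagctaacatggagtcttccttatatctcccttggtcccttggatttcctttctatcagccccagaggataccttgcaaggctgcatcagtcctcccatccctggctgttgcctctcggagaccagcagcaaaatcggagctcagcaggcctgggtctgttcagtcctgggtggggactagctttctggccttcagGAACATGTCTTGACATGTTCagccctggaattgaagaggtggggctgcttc

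The insulin response motif CAAAACA was searched on both strands from 250 bases before to 50 bases after the start. It was present in 4 of the 8 genes, or 4 of their 11 windows, and in 6.28% of all 32851 promoter windows. The motif is a textbook one of Igfbp1 and other insulin-repressed promoters, so this count was partly set in advance. It lay 108 to 102 bases before the start of Igfbp1, 37 to 31 bases before that of Irs2 and 16 to 10 bases before that of Ccng2. Irs1 held 2 copies, 111 to 105 and 32 to 26 bases before its start. The FOXO motif GTAAACA, in 3.65% of windows, was found only in Sesn1 among the 8 genes, 23 to 29 bases after the start of its longer transcript. FOXO factors are known to bind the insulin response motif as well, so a gene without GTAAACA is not one without a FOXO sequence. Only these exact letters were searched, and variants of either motif are neither counted nor marked. These motifs are short, and a match is a run of letters and not a bound site.

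The E-box CACGTG, the sequence bound by USF transcription factors, and the p53 element were searched after the sequences had been seen. CACGTG was present in 7.15% of all windows and in 3 of the 8 genes, or 3 of their 11 windows. It lay 142 to 137 bases before the start of Igfbp2, 115 to 110 in Irs1 and 44 to 39 in Irs2. In Irs1 the E-box shared its last bases with an insulin response motif, and in Irs2 a single base separated the motifs. Windows with both motifs made up 0.408% of all windows. The p53 element, a pair of adjacent decamers read with at most 1 mismatch in 20 bases, was found in 0.0883% of windows and among the 8 genes in Cdkn1a, 51 to 32 bases before the start of the longer of its transcripts (NM_001111099).

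In the RNA-seq, 7 of the 10 genes passed the threshold that 14.6% of all genes passed in the same direction, all 7 with higher levels in the libraries labelled JMJD1C-LKO. They were Igfbp1, Cdkn1a, Ccng2, Irs2, Foxo3, Trib1 and Sesn1, while Insr, Irs1 and Igfbp2 differed by at most 0.11 on the log2 scale. The median log2 fold change of the 10 genes was 0.74, and that of all genes tested was 0.01. Since these differences were known when the genes were chosen, the counts describe the choice. In 8 of the 10 genes both libraries labelled JMJD1C-LKO lay above both WT libraries, as did 33.7% of all genes. These are whole-liver libraries, in which more cells of a type and more RNA per cell cannot be told apart.

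**Figure D1:**
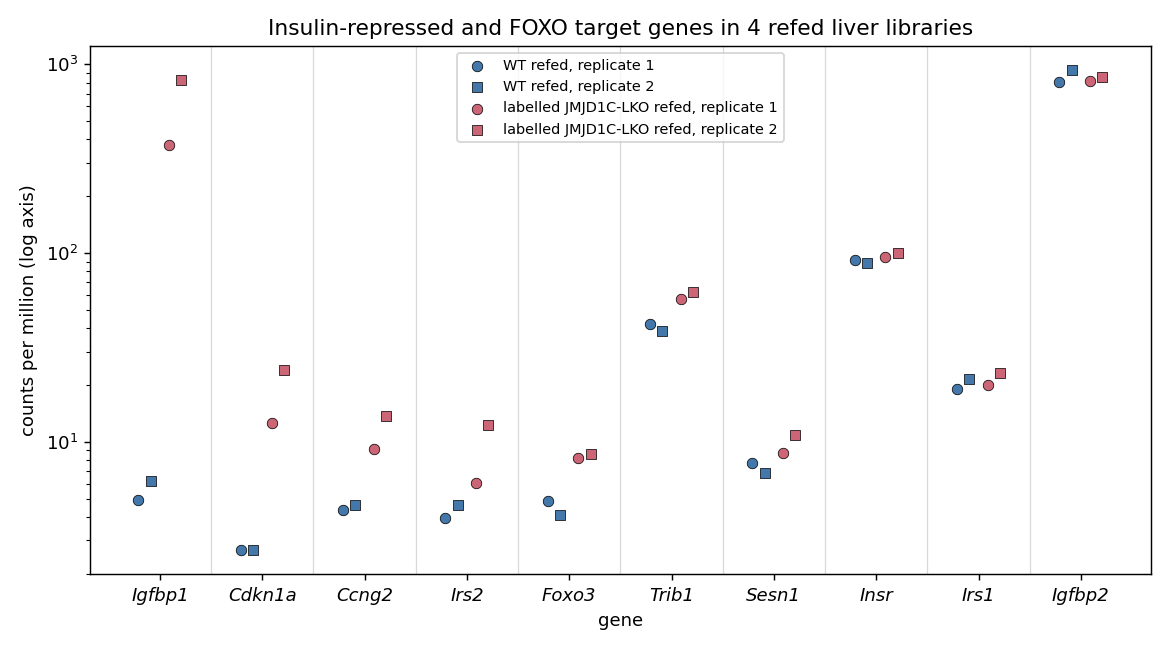
CPM of the 10 genes (log axis) in each refed RNA-seq library, blue for WT and red for the libraries labelled JMJD1C-LKO, circles for replicate 1 and squares for replicate 2, with genes ordered by log2 fold change. Igfbp1 goes from 4.92 and 6.19 CPM to 375 and 830 CPM, while Irs1 and Igfbp2 overlap between the groups.

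Igfbp1 (gene ID 16006, chr11:7197787-7202546, plus strand) showed the widest difference of the 10. It had 255 and 323 estimated counts in the WT libraries, or 4.92 and 6.19 CPM, and 18537 and 45720 counts in the libraries labelled JMJD1C-LKO, or 375 and 830 CPM. The groups were far apart, and replicate 2 of the JMJD1C-LKO label held 2.21 times the level of replicate 1. The log2 fold change was 6.76 ± 0.37 (SE, n = 2 against 2), or 108-fold, rank 6 of 14151 genes by increase. Without JMJD1C-LKO replicate 2 the log2 fold change was 6.08.

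The insulin-like growth factor binding proteins are a family of secreted carriers, and the other members of the family did not share that difference. Igfbp2 (gene ID 16008, chr1:72824480-72852474, plus strand) is also a liver-secreted binding protein that is known to be lower when insulin is high. Its levels were 802 and 934 CPM in WT and 813 and 859 CPM in the libraries labelled JMJD1C-LKO. The groups overlapped, with a log2 fold change of -0.05 ± 0.10. Among the 6 other genes listed with the family, all tested, none rose (1 at an unadjusted p under 0.05, none by DESeq2's Wald test). The only one that fell was Igfals, by 0.77 ± 0.15 on the log2 scale (adjusted p = 0.0049). It encodes the acid-labile subunit, which joins circulating IGF complexes and is not itself one of the binding proteins. With 1 library left out, some of the 6 rose only without JMJD1C-LKO replicate 1. In such a fit the spread of the group left with a single library is not measured.

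Igfbp1 and Igfbp2 each lie beside another binding protein gene, and those neighbours were named after their values had been seen. Igfbp3 (chr11:7206086-7215498, minus strand) ends 3539 bases from the end of Igfbp1 and stood at 31.5 and 40.1 CPM in WT and 38.7 and 50.6 CPM in the libraries labelled JMJD1C-LKO. Its log2 fold change was 0.32 ± 0.14 (adjusted p = 0.12). Igfbp5 lies 5590 bases from Igfbp2 and stood at 6.25 and 4.75 CPM against 4.13 and 4.32 CPM, a log2 fold change of -0.38 ± 0.18 (adjusted p = 0.14). Neither neighbour passed the test, although Igfbp3 did so without JMJD1C-LKO replicate 1.

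At the head of the cascade, the insulin receptor and Irs1 were near their WT levels while Irs2 was higher. Insr (gene ID 16337, chr8:3150922-3279649, minus strand) stood at 91.8 and 88.7 CPM in WT and at 95.2 and 99.9 CPM in the libraries labelled JMJD1C-LKO. The groups did not overlap but the log2 fold change was only 0.11 ± 0.08. Irs1 (gene ID 16367, chr1:82233105-82291439, minus strand) gave 19.1 and 21.5 CPM against 20.1 and 23.2 CPM, overlapping groups with a log2 fold change of 0.09 ± 0.10. Irs2 (gene ID 384783, chr8:10984681-11008929, minus strand), the adaptor that is itself repressed by insulin, gave 3.95 and 4.62 CPM against 6.05 and 12.3 CPM. Both libraries labelled JMJD1C-LKO were above both WT libraries, but replicate 2 held 2.04 times the level of replicate 1, and the log2 fold change of 1.10 ± 0.28 fell to 0.50 without JMJD1C-LKO replicate 2. Irs2 shares 1080 bases with 9530052E02Rik on the opposite strand, and the counting is not stated to use strand, so reads of the pair cannot be told apart.

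Foxo3 (gene ID 56484, chr10:42181845-42276695, minus strand), one of the FOXO factors that Akt inactivates, stood at 4.86 and 4.10 CPM in WT and at 8.24 and 8.62 CPM in the libraries labelled JMJD1C-LKO. The groups were separate and the replicates close, with a log2 fold change of 0.91 ± 0.15, or 1.88-fold. The gene Gm38485 lies within Foxo3 on the same strand over 27374 bases, so reads there could belong to either gene.

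The growth-arrest and stress genes of the set were all higher, to very different extents. Cdkn1a (gene ID 12575, chr17:29090979-29100722, plus strand), which encodes the cyclin-dependent kinase inhibitor p21, gave 2.66 and 2.68 CPM in WT and 12.5 and 24.1 CPM in the libraries labelled JMJD1C-LKO. Its log2 fold change was 2.78 ± 0.28, or 6.85-fold, and 2.22 without JMJD1C-LKO replicate 2. Ccng2 (gene ID 12452, chr5:93267573-93276231, plus strand), an atypical cyclin linked to cell-cycle exit, gave 4.36 and 4.60 CPM against 9.11 and 13.7 CPM. Its groups were separate as well, with a log2 fold change of 1.35 ± 0.19, or 2.55-fold. Sesn1 (gene ID 140742, chr10:41810574-41908436, plus strand), a sestrin that restrains mTORC1, gave 7.68 and 6.79 CPM against 8.72 and 10.9 CPM. That was a small difference, 0.44 ± 0.15 on the log2 scale.

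Trib1 (gene ID 211770, chr15:59648654-59657099, plus strand), a pseudokinase that guides the degradation of C/EBPα in liver, gave 41.9 and 38.7 CPM in WT and 56.8 and 62.5 CPM in the libraries labelled JMJD1C-LKO. The groups were separate with tight replicates, and the log2 fold change was 0.57 ± 0.09, or 1.48-fold. Calls were lost for 3 genes of the set when 1 library was left out, namely Irs2 and Sesn1 without WT replicate 1, without WT replicate 2 or without JMJD1C-LKO replicate 2, and Foxo3 without WT replicate 2. The set then held between 4 and 7 genes past the threshold, the 4 occurring without WT replicate 2.

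The libraries labelled JMJD1C-LKO were not alike for these genes. Replicate 2 was above replicate 1 in all 10 genes, against 50.6% of all genes, and by more than 1.5 times in 4 of them (Igfbp1, Irs2, Cdkn1a and Ccng2), against 7.51% of all genes. Between the WT libraries, replicate 2 was the higher in 6 of 10, against 48.8% of all genes. The median ratio of replicate 2 to replicate 1 over all genes was 1.0019 within the JMJD1C-LKO label and 0.996 within WT, values that the scaling itself keeps near 1.

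Levels of different genes were compared per transcript length, in transcripts per 1000000 (TPM) computed with RefSeq lengths. In WT, Igfbp2 stood at 1510 ± 181 TPM (SD, n = 2), rank 79 of 15489 genes, and far above the other 9. Trib1 followed at 17.2 ± 0.687 TPM, Insr at 16.6 ± 0.137 and Igfbp1 at 6.30 ± 1.12 TPM. The remaining genes went down from Sesn1 at 4.41 ± 0.354 TPM through Irs1, Ccng2 and Cdkn1a to Foxo3 at 1.14 ± 0.119 and Irs2 at 1.09 ± 0.136 TPM. Foxo3 and Irs2 were the only neighbours in this order whose libraries overlapped.

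In the libraries labelled JMJD1C-LKO the order changed at its top and in its middle. Igfbp1 moved from rank 7085 to rank 221 of all genes, at 676 ± 380 TPM, second of the 10 to Igfbp2 at 1410 ± 101 TPM. Cdkn1a, at 16.2 ± 7.76 TPM, now overlapped with Insr at 17.6 ± 1.18 TPM. Ccng2 with Sesn1 and Irs2 with Foxo3 also overlapped, and the other neighbours did not.

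Of the 10 genes, 4 had estimated counts for more than 1 transcript, and in Sesn1 these went opposite ways. The starts of its transcripts lie 76865 bases apart. NM_001162908, the upstream one, stood at 2.91 and 2.99 CPM in WT and 1.48 and 2.03 CPM in the libraries labelled JMJD1C-LKO, a log2 fold change of -0.75 ± 0.28. NM_001013370 stood at 4.76 and 3.79 CPM against 7.25 and 8.92 CPM, a log2 fold change of 0.92 ± 0.21. The share of Sesn1 counts from NM_001013370 was 62.1% and 55.8% in WT and 83.1% and 81.5% under the JMJD1C-LKO label, without overlap. The gene-level value of 0.44 therefore joined a transcript estimated as lower and one estimated as higher. NM_001162908 rested on 150.9 and 156.5 estimated counts in WT and 72.6 and 111.8 under the JMJD1C-LKO label. How counts were split between the transcripts rests on the authors' estimation, and the difference between the transcripts was not tested.

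Both Cdkn1a transcripts were higher, NM_001111099, which has the p53 element before its start, from 0.848 and 0.862 CPM to 3.97 and 8.63 CPM, and NM_007669, which starts 2790 bases downstream, from 1.81 and 1.82 CPM to 8.50 and 15.5 CPM. They are not separate measurements, since NM_001111099 was given 31.8% of the Cdkn1a counts in 3 of the 4 libraries and 35.8% in JMJD1C-LKO replicate 2, so mainly the total of the gene was measured. The transcripts of Insr differ by exon 11, which is 36 bases long (chr8:3181702-3181737) and whose use separates the A and B forms of the receptor. The form with this exon made up 49.5% and 46.4% of Insr counts in WT and 48.0% and 46.7% under the JMJD1C-LKO label, so that the groups overlapped. Shares of transcripts that differ by so few bases rest on few reads and on the estimation used by the authors. Igfbp2 was mainly counted as NM_001310659, at 80.4% and 79.1% in WT and 76.1% and 75.8% under the JMJD1C-LKO label.

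**Figure D2:**
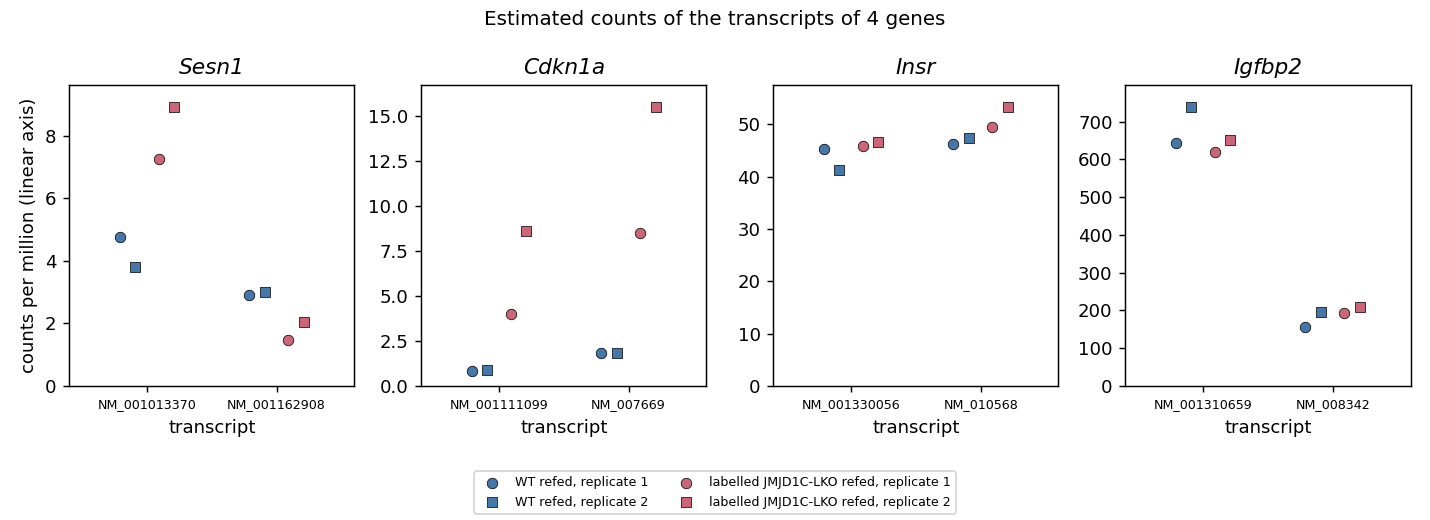
CPM (linear axis from 0, a scale for each gene) of the transcripts of Sesn1, Cdkn1a, Insr and Igfbp2 in each library, coloured as in the plot of all 10 genes. In Sesn1 NM_001013370 is higher and NM_001162908 lower in the libraries labelled JMJD1C-LKO, while both Cdkn1a transcripts are higher.

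Outside these genes, the list of FOXO targets held 28 others, of which 27 were tested. In the libraries labelled JMJD1C-LKO 12 rose and 2 fell, with a median log2 fold change of 0.23, where 14.6% of all genes rose and 13.4% fell. Genes of fasting metabolism were among those that rose. Pck1, the gluconeogenic enzyme PEPCK, went from 1520 and 1210 CPM to 3100 and 3750 CPM (log2 fold change 1.33 ± 0.13, adjusted p = 0.00021). Ppargc1a, the coactivator PGC-1α, rose by 1.72 ± 0.13 (adjusted p = 5.4e-05) and Tsc22d3, which encodes GILZ and is also a glucocorticoid target, by 0.90 ± 0.11 (adjusted p = 0.00047). Gadd45a, a growth-arrest and DNA-damage gene, went the other way, from 9.32 and 7.30 CPM to 1.92 and 1.40 CPM (log2 fold change -2.33 ± 0.21, adjusted p = 0.00014).

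**Figure D3:**
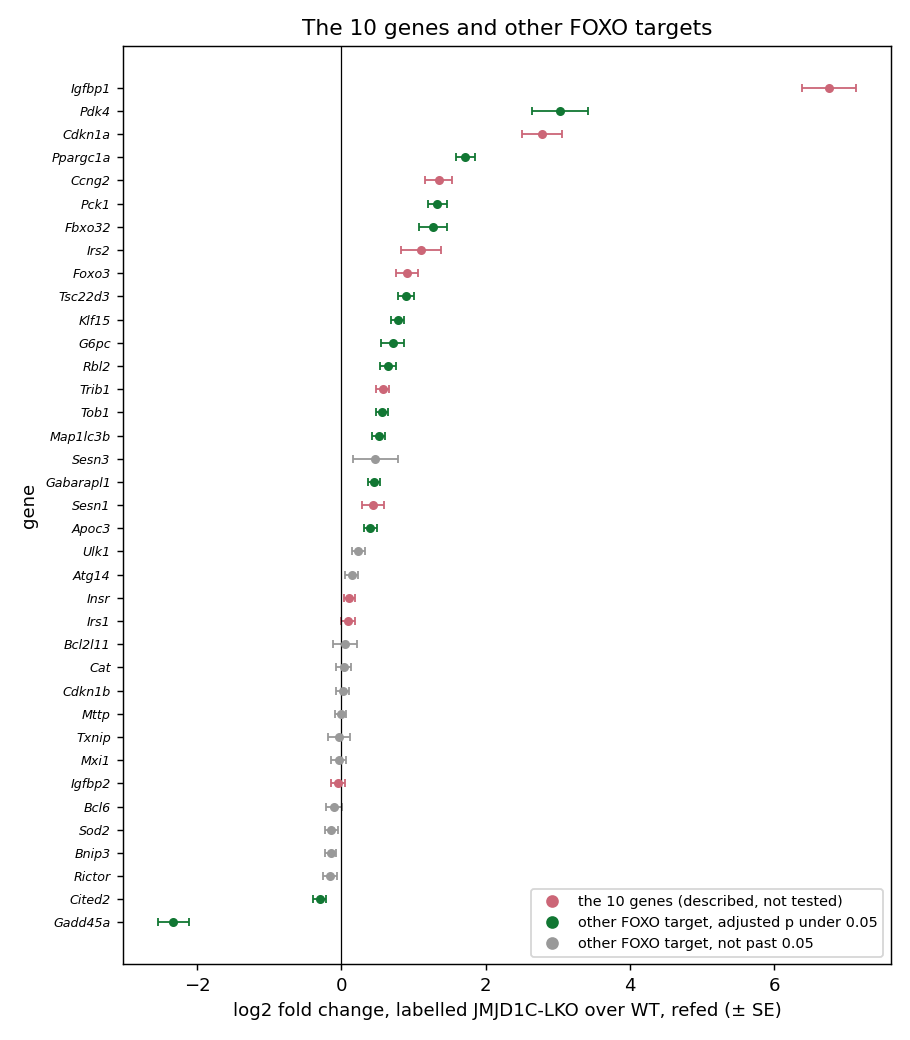
Log2 fold change (± SE, n = 2 against 2) of the 10 genes (red) and of the 27 other FOXO targets tested, green where the adjusted p was under 0.05 and grey otherwise, in the libraries labelled JMJD1C-LKO over WT, all refed. Igfbp1 stands at 6.76 and Gadd45a at -2.33, with 12 other targets in green to the right of 0 and 2 to the left.

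Pdk4, which restrains pyruvate oxidation, and G6pc, the last enzyme of glucose production, were named after their values had been seen. Pdk4 went from 1.003 and 1.17 CPM to 5.18 and 12.6 CPM (log2 fold change 3.03 ± 0.39, adjusted p = 0.00069, and 2.25 without JMJD1C-LKO replicate 2), and G6pc from 313 and 357 CPM to 438 and 661 CPM (0.71 ± 0.16, adjusted p = 0.011). G6pc did not pass without either WT library. The counts of this list ranged from 8 to 13 rising and from 1 to 3 falling when 1 library was left out, with 1 falling without either WT library and 3 without either library of the JMJD1C-LKO label.

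The RNA of the other genes of the insulin cascade moved little. Of 36 such genes 35 were tested, 2 rose and 3 fell, and their median log2 fold change was 0.02. Over all genes 14.6% rose and 13.4% fell. Irs2 and Foxo3, cascade genes within the set, were higher, as given above. The cascade works through phosphorylation, which was not measured. Foxo1, the main hepatic FOXO factor, rose by 0.50 ± 0.10 (adjusted p = 0.0073) and Inppl1, a lipid phosphatase that opposes PI3K, by 0.32 ± 0.08 (adjusted p = 0.02). Rps6kb1, the S6 kinase, went from 65.1 and 62.2 CPM to 45.1 and 44.6 CPM, or -0.51 ± 0.08 (adjusted p = 0.0017), and Rheb, the activator of mTORC1, gave -0.37 ± 0.08 (adjusted p = 0.011). Without WT replicate 1 or WT replicate 2 none rose and 1 fell, and 6 fell without JMJD1C-LKO replicate 1. Foxo1 and Rheb did not pass without either WT library, nor did Inppl1, which also did not pass without JMJD1C-LKO replicate 2, while Rps6kb1 passed each time.

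Of 13 genes that insulin induces, all tested, 6 fell, 1 rose and 6 did not pass, with a median log2 fold change of -0.29. Over all genes 13.4% fell and 14.6% rose. The log2 fold change was above 0 in 4 of the 13 genes. Me1, the malic enzyme that supplies NADPH for lipogenesis, fell by 0.88 ± 0.10 on the log2 scale (adjusted p = 0.00034), Acaca, the acetyl-CoA carboxylase, by 0.57 ± 0.09 (adjusted p = 0.0021) and Mlxipl, which encodes ChREBP, by 0.49 ± 0.08 (adjusted p = 0.0021). Scd1, the stearoyl-CoA desaturase, was the 1 that rose past the threshold, going from 369 and 354 CPM to 1310 and 1570 CPM (log2 fold change 1.997 ± 0.10, adjusted p = 1e-05). Without WT replicate 2 the number that fell was 2, which no longer held Acaca, and without JMJD1C-LKO replicate 1 it was 9.

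Paralogs of the 10 genes gave 9 tested genes, of which 3 rose and none fell by edgeR's test (none at an unadjusted p under 0.05 and none by DESeq2's Wald test). Sesn2, a stress-induced sestrin, rose by 1.06 ± 0.19 (adjusted p = 0.0033) and Trib3 by 0.64 ± 0.12 (adjusted p = 0.0047), the third being Foxo1. Without either WT library Sesn2 alone passed. Among 15 other p53 targets 3 rose and 4 fell, with a median log2 fold change of 0.04. Over all genes 14.6% rose and 13.4% fell. Btg2, an antiproliferative gene, rose by 2.32 ± 0.22 (adjusted p = 0.00017) and Trp53inp1 by 2.14 ± 0.24 (adjusted p = 0.00037), while Gadd45a is also in this list. The 4 that fell became 2 without WT replicate 1 and 1 without WT replicate 2.

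In the list of the integrated stress response, 3 of 15 genes rose and 4 fell, with a median log2 fold change of -0.09. Over all genes 14.6% rose and 13.4% fell. Ddit4 (REDD1), an inhibitor of mTORC1 that glucocorticoids and stress induce, went from 4.05 and 4.22 CPM to 41.0 and 84.0 CPM (log2 fold change 3.92 ± 0.30, adjusted p = 5.8e-05, and 3.31 without JMJD1C-LKO replicate 2). Fgf21, the hepatic fasting hormone, fell by 2.45 ± 0.11 (adjusted p = 4.8e-06) and Psat1, of serine synthesis, by 1.95 ± 0.35 (adjusted p = 0.0038). Without WT replicate 1 the number that fell was 2, and without WT replicate 2 it was 1, with Psat1 no longer passing.

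The genes whose pattern over the 4 libraries lay nearest to that of Igfbp1, by Euclidean distance of centred log2 CPM, were Ppp1r3g, Sult2a2, Sult2a1, 2310034O05Rik and Ddit4, at distances of 0.582, 1.52, 1.93, 2.54 and 2.84. Ppp1r3g, a glycogen-targeting subunit of protein phosphatase 1, went from 0.116 and 0.153 CPM to 16.2 and 40.3 CPM. Sult2a1 and Sult2a2 encode closely related sulfotransferases whose reads could be split between them. With 4 libraries, a like pattern says little more than that the difference between the groups was of like size.

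Other properties of the libraries moved with the JMJD1C-LKO label beside these genes. All 8 Kupffer cell markers rose, with a median log2 fold change of 1.31, and their summed level was 259 and 269 CPM in WT against 504 and 721 CPM. Of 7 endothelial markers 5 rose, with sums of 114 and 113 CPM against 148 and 196 CPM. Replicate 2 of the JMJD1C-LKO label had the highest sum in both lists, as it had the highest level of Igfbp1. Hepatocyte markers gave sums of 125000 and 123000 CPM in WT against 127000 and 112000 CPM, with 1 of 7 tested markers rising. No counts were found under the symbol Tf, so transferrin was not assessed. The Kupffer count was 8 with any 1 library left out, while the endothelial count was 2 without WT replicate 2, 3 without WT replicate 1 and 7 without JMJD1C-LKO replicate 1. What part these had in the differences of the 10 genes was not tested.

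Among the other marker lists, none of 5 cholangiocyte and none of 6 stellate cell markers passed edgeR's or DESeq2's test (1 and 3 at an unadjusted p under 0.05), 2 of 7 lymphocyte and 1 of 5 erythroid markers rose, 1 of 2 tested pancreas markers rose with 6 of the 8 at 0 or absent, and no adipocyte marker was abundant enough to test. Without JMJD1C-LKO replicate 1, 2 stellate and 4 lymphocyte markers rose and 1 stellate marker fell, 1 cholangiocyte marker fell without JMJD1C-LKO replicate 2, and all 5 erythroid markers rose without WT replicate 1. No lymphocyte marker rose without WT replicate 2, no erythroid marker without WT replicate 2 or JMJD1C-LKO replicate 1, and no pancreas marker without either WT library, and 1 lymphocyte marker rose without WT replicate 1 or JMJD1C-LKO replicate 2. Of 11 immediate early genes tested 5 rose, against 14.6% of all genes, Jun by 0.80 ± 0.11 (adjusted p = 0.001), Junb by 0.71 ± 0.15 (adjusted p = 0.0091), Zfp36 by 0.55 ± 0.11 (adjusted p = 0.0067) and Nr4a1 by 1.47 ± 0.33 (adjusted p = 0.011). That number was 2 without WT replicate 1, 1 without WT replicate 2, which left Jun, and 3 without JMJD1C-LKO replicate 2, where 2 others fell.

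Over all genes 14.6% rose and 13.4% fell, shares to set beside the next 2 lists. Of 15 clock genes tested 2 rose and 5 fell. Ciart rose by 0.60 ± 0.08 (adjusted p = 0.0011) and Per2 fell by 0.48 ± 0.08 (adjusted p = 0.0031). Per3 stood at -0.46 ± 0.08 (adjusted p = 0.0041) and Nr1d1 at -0.37 ± 0.07 (adjusted p = 0.0062). Without either WT library 1 clock gene rose and 1 fell, while 3 rose and 8 fell without JMJD1C-LKO replicate 1. Of 17 genes known for a sex bias in liver 7 rose and 2 fell, among them Elovl3 at 2.72 ± 0.21 (adjusted p = 5.8e-05), Cyp4a12b at 0.97 ± 0.18 (adjusted p = 0.004), Sult2a1 at 5.13 ± 0.47 (adjusted p = 0.00014) and Cyp2a4 at -2.75 ± 0.26 (adjusted p = 0.00016). Reads of Cyp2a4, Cyp4a12b and Sult2a1 could be shared with near-identical relatives. Without WT replicate 1 and WT replicate 2, 4 and 3 of them rose and 1 fell, and Cyp4a12b did not pass without WT replicate 2. Without JMJD1C-LKO replicate 2 the log2 fold change of Sult2a1 was 4.39 and that of Cyp2a4 -3.35. The hour of tissue collection is not given in the labels, and its part in these values was not tested.

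Chromatin at the starts of the 10 genes was compared between fasted and refed WT livers through H3K9me2, a mark commonly tied to silent chromatin. A summit is the highest point of a peak that the authors called in a single liver, and a gene was counted when one fell no further than 1000 bp from any of its starts. In fasted livers 8 of 10 genes had a summit in replicate 1, where 29.3% of annotated genes and 51.6% of the genes tested in RNA-seq had one, and 10 of 10 in replicate 2, where these shares were 42.7% and 74.1%. In refed livers none of 10 had one in replicate 1 (0.233% of annotated genes) and 7 of 10 in replicate 2 (35.1% of annotated and 61.6% of tested genes). No gene of the set had a summit in both refed livers (0.042% of annotated and 0.0723% of tested genes). With 2 livers against 2 and with refed replicate 1 almost empty over the whole genome, fasting and refeeding were not compared by a test.

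In both fasted livers 8 genes had a summit, all except Irs2 and Sesn1. The share was 29.1% of annotated genes and 51.3% of the genes tested in RNA-seq. The summit of Irs2 in fasted replicate 1 lay 1119 bases after the start, just outside the window, and Sesn1 had none near in that liver. Of these 8 genes 5 also had a summit in refed replicate 2, or 62.5%, against 96.4% of the 7621 annotated genes with a summit in both fasted livers. The 3 genes without a summit in refed replicate 2 were Igfbp1, Igfbp2 and Cdkn1a. This rests on a single refed liver, and the presence of a called summit depends on that liver's depth, which the summit lists do not give.

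At Igfbp1 the fasted summits lay 633 bases after the start, in an intron, in replicate 1 and 323 bases after it, in an exon, in replicate 2, with a second one at 1853 bases. In the refed livers the nearest summits lay 384424 and 571307 bases away. The Igfbp1 summits were not strong ones, at rank 5334 of 7690 and rank 8484 of 13456 by score, which is the -log10 of the q-value. At Igfbp2 summits lay 365 and 317 bases after the start in the fasted livers, and the nearest in refed replicate 2 lay 112874 bases away. At Cdkn1a they lay 369 and 314 bases after the start of NM_007669, the downstream start, at ranks 805 and 7055. Refed replicate 1 had 3 summits 7820 to 8563 bases after that start, beyond the end of the gene, and refed replicate 2 had none within 10000 bases of it.

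At the other genes, summits of fasted and refed livers lay at like distances from the start. Trib1 had summits 343 and 262 bases after its start in fasted livers and 286 bases after it in refed replicate 2, where it was rank 51 of 9929. Insr had summits at 369 and 455 bases in fasted livers and 397 bases in refed replicate 2, at ranks 1143, 2452 and 1076 of their livers. Foxo3 had summits at 511 and 270 bases in fasted livers and 298 bases in refed replicate 2, the last at rank 861. Irs1 summits lay at 642, 768 and 784 bases in the same livers and Ccng2 summits at 324, 222 and 182 bases. In refed replicate 2 these ranked low, 8177 of 9929 for Irs1 and 9031 for Ccng2. The fasted Ccng2 summits ranked 1569 of 7690 and 4651 of 13456. Irs2 had a pair around its start in fasted replicate 2, at -451 and 489 bases, and in refed replicate 2, at -467 and 224 bases. The refed pair ranked 7126 and 8290 of 9929. Insr also had a weaker summit at -268 bases in fasted replicate 2. Foxo3 had weaker ones at -357 bases in fasted replicate 1 and -411 bases in refed replicate 2. Sesn1 was marked 241 bases before its upstream start in fasted replicate 2 and 249 bases before it in refed replicate 2, and in fasted replicate 2 also 221 bases after the downstream start.

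**Figure D4:**
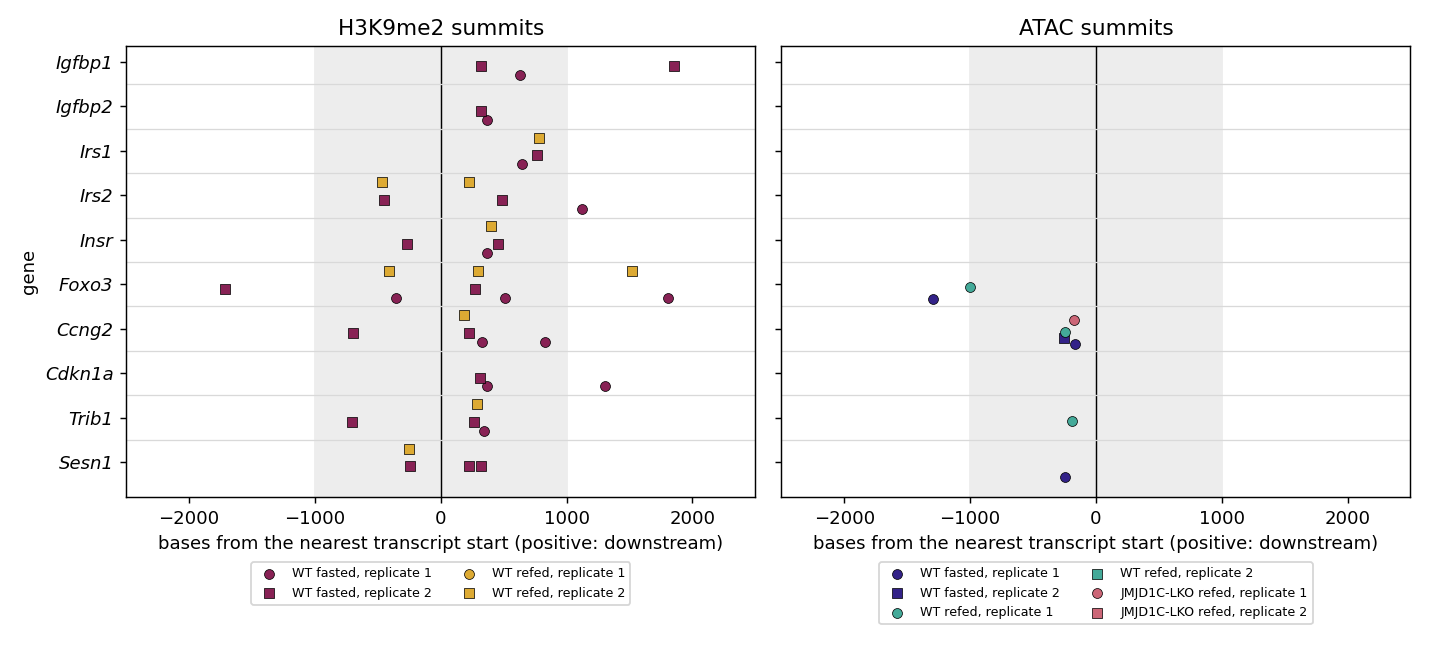
Distance in bases of each H3K9me2 summit (left) and ATAC summit (right) from the nearest transcript start of the 10 genes, out to 2500 bases, with a colour for each group, circles for replicate 1 and squares for replicate 2. Grey marks the window of 1000 bp. Igfbp1, Igfbp2 and Cdkn1a have H3K9me2 summits in fasted livers only, and Ccng2 has ATAC summits in 4 of the 6 livers.

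Most H3K9me2 summits lay downstream of the start, both at these genes and elsewhere. Within the window 9 of 10 summits of the genes were downstream in fasted replicate 1, 11 of 16 in fasted replicate 2 and 6 of 9 in refed replicate 2, where 88.6%, 83.2% and 86.5% of all such summits were. The median distance was 369, 266 and 224 bases for the genes and 267, 226 and 267 bases for all.

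ATAC-seq marks open chromatin, and few of the 10 genes had an ATAC summit at a start. The numbers were 2 and 1 in the fasted WT livers, 3 and 0 in the refed WT livers and 1 and 0 in the refed livers labelled JMJD1C-LKO, in the order of the replicates. Among the genes tested in RNA-seq the shares were 20.2% and 9.28%, 16.7% and 10.5%, and 6.66% and 1.31%, so such summits were sparse everywhere and sparsest in JMJD1C-LKO replicate 2, which had 825 summits. The libraries' ATAC depth is unknown from the summit lists, and no test was made.

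Ccng2 was the gene most often marked. Its summit lay 166 and 252 bases before the start in the fasted livers, 243 bases before it in refed replicate 1 and 172 bases before it in JMJD1C-LKO replicate 1, upstream of the insulin response motif that lies 16 to 10 bases before the start. By score it ranked 388 of 5220, 464 of 7632, 1111 of 5027 and 936 of 1450. It was the only one of the 10 with a summit in both livers of a group, in the fasted group. There 4.36% of annotated genes and 7.36% of the genes tested in RNA-seq had one. Fasted replicate 2, whose summits lay mostly in repeats, is needed for that, and fasted replicate 1 alone had summits at Ccng2 and Sesn1. In the refed WT group the shares were 4.78% of annotated and 8.07% of tested genes. In the refed group labelled JMJD1C-LKO they were 0.397% and 0.564%. None of the 10 had one in both livers of either group.

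Trib1 had an ATAC summit 193 bases before its start in refed replicate 1 only, and Sesn1 had one 243 bases before its upstream start in fasted replicate 1 only. At Foxo3 summits lay 1292 bases before the start in fasted replicate 1 and 997 bases before it in refed replicate 1. Irs1 had none at its start but had one 25266, 24983, 25196 and 25155 bases upstream in fasted replicate 1, refed replicate 1 and both livers labelled JMJD1C-LKO. The ATAC summit nearest to the start of Igfbp1 in any liver lay 377555 bases away.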

How the data were processed

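ATAC-seq, H3K9me2 ChIP-seq (antibody ab176882, with inputs) and RNA-seq of mouse liver were used, with groups taken from the sample titles and genotypes. The authors aligned ATAC-seq reads to mm10 with BWA and ChIP-seq reads with Bowtie2, called peaks in each liver with MACS2 (q-value of at most 0.05, fold enrichment of 2.0 for ATAC-seq and 2.5 for ChIP-seq over input) and deposited summits with a −log10 q-value. The lists hold no widths, read counts or depth. The RNA-seq file holds estimated counts, deposited for each RefSeq transcript without scaling, 65.8% of them fractional. HISAT2 and Partek are among the tools in the submitters' processing notes, and how reads were counted or assigned to strand is not given in the sources used here. A further deposited table of the authors' own comparison (p-values, FDR and fold changes per transcript) was not used.

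Counts were summed per gene and rounded, filtered with filterByExpr, scaled by TMM and tested with edgeR 4.0.16 (quasi-likelihood F test, Benjamini-Hochberg over 14151 genes, threshold 0.05), checked on simulated data. CPM are TMM-scaled, and log2 CPM used a prior count of 2. TPM used RefSeq lengths for 24682 of 24994 transcripts. Replicates are separate samples of pooled RNA, so p-values measure the spread between pools. Transcript starts and coordinates come from RefSeq on GRCm38.p6, the sequence of mm10. Promoter sequences are those of RefSeq. Motif shares are over all RefSeq promoter windows.

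The 10 genes and all gene lists were chosen with earlier results of these data known. Besides the 10 genes and Jmjd1c, up to 4 genes past the threshold with the smallest p were named per gene list, and the 5 genes nearest to Igfbp1. Genes named otherwise are said to be. Alternatives were other size factors, no filter, DESeq2 1.42.0, a replicate block, each library left out, the most abundant transcript alone, and for summits other windows, scores, numbers and repeat-masked summits left out.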

Additional observations from a re-analysis of the deposited data

How the results depend on the processing

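The genes of the set were chosen with their differences known, and the alternatives refit the same libraries, so these counts describe the choice. The sign of the 7 called genes never changed under the 9 RNA-seq alternatives. With every library kept, Igfbp1, Cdkn1a, Ccng2 and Trib1 always passed the threshold. Genes of the set past it numbered 7 with DESeq2's size factors, 6 without the filter (Sesn1 lost), 5 by DESeq2's Wald test (Irs2 and Sesn1 lost), 6 with the most abundant transcript alone (Irs2 lost) and 4 to 7 with 1 library left out. Over all genes 1263 were higher and 1063 lower with the most abundant transcript alone, and 660 to 2590 higher and 408 to 2590 lower with 1 library left out, the lowest without WT replicate 2 and 789 and 476 without WT replicate 1. Other FOXO targets that fell numbered 1 by DESeq2's Wald test and 1 to 3 with 1 library left out.

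The replicate numbers did not pair the libraries (correlation of same-numbered deviations -0.00461, 2 pairs), and a fit with a replicate block gave 2211 genes higher and 1996 lower, 7 of the set among the former.

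H3K9me2 summits in both fasted livers were found at 6 genes within 500 bp, 9 within 2500 bp, 8 at a score of at least 5 or without repeat-masked summits, and 0 among the 1297 strongest of each liver. Counted in either liver, refed H3K9me2 summits were at 7 genes and ATAC summits at 2 (fasted), 3 (refed WT) and 1 (labelled JMJD1C-LKO). With a single liver per group the H3K9me2 numbers were 8 to 10 fasted and 0 to 7 refed, and the ATAC numbers 1 to 2 fasted, 0 to 3 refed WT and 0 to 1 under the JMJD1C-LKO label. What the summit lists hold depends on depth, which is unknown.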
